A study of Rattus norvegicus with 8 samples.

Results

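The genes described here are those of endoplasmic reticulum (ER) stress and of the transcription factor ATF4, a set of 58 genes chosen by name, of which 52 had a row among the 10692 genes of the deposited expression table. Nupr1, Stc2, Asns, Aldh18a1, Cbs and Uggt1 had no row and were not analysed here. The libraries came from islet cells of Sprague Dawley rats at day 10 after birth, which were separated into single cells, kept in culture and given locked nucleic acid (LNA) oligonucleotides by lipid transfection. The control group of 4 libraries received 60 pmol of a control LNA, and the inhibitor group of 4 libraries received 20 pmol of each of 3 LNAs, 60 pmol in total, against tiRNA-5 fragments of tRNA HisGTG, GluCTC and GluTTC. A tiRNA-5 is the upstream part of a tRNA cut in its anticodon loop. The cells of both groups were transfected with lipid and LNA, no untransfected cells were compared, and the level of the fragments is not part of these mRNA measurements. Nothing in the labels says that replicate libraries stem from different animals or cultures. A p-value therefore measures the spread between these libraries, and whether that spread is technical or biological is not stated. Y-linked mRNAs differed between the libraries, as given below, and the reason was not tested.

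Secretory cells answer an overload of unfolded proteins in the ER with the unfolded protein response. The sensor IRE1 (gene Ern1) splices the mRNA of Xbp1, ATF6 is cut by Golgi proteases to release a transcription factor, and PERK phosphorylates eIF2, which slows translation while allowing that of ATF4. ATF4 is also reached from other eIF2 kinases on amino acid shortage, a route called the integrated stress response, and its targets include enzymes of amino acid synthesis and the factor CHOP (gene Ddit3). Beta cells fold large amounts of proinsulin and are known to depend on this response. The values here are mRNA levels, so neither splicing of Xbp1, cleavage of ATF6 nor translation of Atf4 was measured.

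Each library had from 16035607 to 19049788 reads in the listed genes, and the 52 genes together took between 1.24% and 1.45% of them. All 8 named beta-cell markers were listed, among them Ins1 and Ins2, the 2 genes of highest RPKM in the table, as were all 6 alpha-cell and all 3 delta-cell markers. Of markers of other cells, 12 of 15 mesenchymal, 5 of 8 endothelial, 3 of 7 ductal, 2 of 10 leukocyte and 1 of 9 acinar genes were listed. The summed mesenchymal markers ranged from 3045 to 6617 RPKM in control and from 3426 to 5442 RPKM in inhibitor libraries, and were lowest in control 1. Inhibitor 4 stood apart by the Y-linked Eif2s3y and Kdm5d, the latter at 0.120 RPKM against 2.77 to 8.73 RPKM in the other 7 libraries. Kdm5d was highest in control 1 and inhibitor 1, at 7.04 and 8.73 RPKM, as was Eif2s3y, at 14.2 and 18.8 RPKM. The remaining listed Y-linked gene, Ddx3y, was not low in inhibitor 4, at 1.42 RPKM against 0.909 to 1.39 RPKM in the other 7. Ddx3y did not follow Kdm5d in inhibitor 1 either, at 1.18 RPKM. Counts and several of the values below are therefore also given without control 1, without inhibitor 4 or without both. In such mixed cells, fewer cells of a type and less RNA per cell cannot be told apart.

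The proximal promoters of several of the genes hold the sequences through which this response is known to act, and 5 are shown because they carry the motifs that define the ER and the ATF4 arms. The ER stress element (ERSE) is CCAAT, 9 bases of any kind, then CCACG. The shorter ERSE-II is ATTGG, 1 base, then CCACG. The other motifs searched were the core of the C/EBP-ATF response element, TGATGCAA, and the unfolded protein response element, TGACGTGG. Windows reached from 250 bases before to 50 bases after each RefSeq start of assembly GRCr8, and both strands were searched. Of the 52 genes, 45 had such a window. An ERSE stood in 5 of the 45 (Calr, Canx, Creld2, Derl3 and Xbp1), or 11.1%, against 0.0765% of 27457 genes, and an ERSE-II in 2 (Herpud1 and Hyou1), or 4.44% against 0.0619%. The C/EBP-ATF core stood in 4 (Chac1, Herpud1, Ppp1r15b and Pycr1), or 8.89% against 0.827%, and the unfolded protein response element in 2 (Hyou1 and Vcp), or 4.44% against 0.681%. Genes were chosen by name partly for this regulation, so these shares describe the set, and a match is not a binding site.

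In the sequences, capitals mark the motif matches. That of Xbp1 begins 65 bases before the start and is an ERSE, and that of Calr is an ERSE on the reverse strand. Herpud1 has the C/EBP-ATF core on the reverse strand upstream of its ERSE-II. Hyou1 has an ERSE-II on the reverse strand at 2 places, the upstream one overlapping the unfolded protein response element. Chac1 has the C/EBP-ATF core alone, on the reverse strand.
Xbp1 (GRCr8 chr14:84604373-84604672, plus strand): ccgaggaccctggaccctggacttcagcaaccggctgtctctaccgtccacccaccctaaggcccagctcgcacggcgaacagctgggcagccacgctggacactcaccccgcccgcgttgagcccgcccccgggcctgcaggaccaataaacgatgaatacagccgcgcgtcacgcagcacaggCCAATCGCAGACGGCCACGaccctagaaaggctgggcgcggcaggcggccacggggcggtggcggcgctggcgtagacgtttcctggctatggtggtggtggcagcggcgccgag
Calr (GRCr8 chr19:40213117-40213416, plus strand): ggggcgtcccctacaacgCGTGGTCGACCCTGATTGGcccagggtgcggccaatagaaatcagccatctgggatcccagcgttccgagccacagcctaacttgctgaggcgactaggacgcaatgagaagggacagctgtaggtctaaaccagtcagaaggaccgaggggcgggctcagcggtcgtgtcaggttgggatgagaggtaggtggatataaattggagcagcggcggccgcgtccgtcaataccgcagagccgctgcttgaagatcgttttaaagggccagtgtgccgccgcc
Hyou1 (GRCr8 chr8:53602632-53602931, plus strand): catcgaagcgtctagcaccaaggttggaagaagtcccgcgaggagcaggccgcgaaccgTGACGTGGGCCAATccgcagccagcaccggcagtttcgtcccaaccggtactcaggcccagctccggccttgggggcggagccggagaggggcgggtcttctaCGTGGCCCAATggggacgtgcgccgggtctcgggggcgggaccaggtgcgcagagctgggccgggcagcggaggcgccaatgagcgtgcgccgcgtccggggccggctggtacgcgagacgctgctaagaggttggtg
Herpud1 (GRCr8 chr19:10614658-10614957, minus strand): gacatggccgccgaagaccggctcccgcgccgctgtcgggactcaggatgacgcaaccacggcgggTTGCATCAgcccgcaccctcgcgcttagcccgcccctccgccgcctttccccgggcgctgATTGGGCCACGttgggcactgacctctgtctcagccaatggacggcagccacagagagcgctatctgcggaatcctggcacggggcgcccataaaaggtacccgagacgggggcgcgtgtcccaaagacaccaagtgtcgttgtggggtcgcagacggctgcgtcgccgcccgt
Chac1 (GRCr8 chr3:126795881-126796180, plus strand): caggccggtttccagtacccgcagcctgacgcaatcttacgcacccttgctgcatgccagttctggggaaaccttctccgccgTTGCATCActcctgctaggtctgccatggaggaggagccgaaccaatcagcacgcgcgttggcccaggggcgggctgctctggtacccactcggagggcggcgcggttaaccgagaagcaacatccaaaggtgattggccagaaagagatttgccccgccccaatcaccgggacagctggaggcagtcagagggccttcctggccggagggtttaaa

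The comparison of the groups asks whether the mRNAs of this response differ once the tRNA fragments are inhibited. None of the 52 genes passed the threshold in either direction (limma on log2(RPKM + 1), adjusted p under 0.05 over 10688 genes; smallest adjusted p 0.541), and 0% of all genes tested did. RPKM is the number of reads per kilobase of gene, scaled to library size. The group means lay within 10% of each other for 43 of the 52. At an unadjusted p under 0.05, 1 gene (Ddit3) had the higher and 4 (Shmt2, Crebzf, Os9 and Syvn1) the lower mean in inhibitor cells, which is 9.62% of the set against 8.98% of all genes tested. The background was 5.52% in the higher and 3.46% in the lower direction. Without control 1 the lower genes were 3 (Shmt2, Pycr1 and Trib3), with Crebzf, Os9 and Syvn1 no longer under 0.05, and the higher genes 2 (Ddit3 and Ppp1r15b), or 9.62% of the set against 11.9% of all genes. Without control 2 or without inhibitor 1 the lower genes were 1 (Shmt2) and the higher genes 1 (Ddit3), or 3.85% of the set, against 4.63% and 3.95% of all genes. Without inhibitor 4 they were 2 (Shmt2 and Os9) and 2 (Ddit3 and Vldlr), or 7.69% against 8.04%. Without control 4 the lower genes were 4 and the higher genes 2, or 11.5% of the set against 11.3% of all genes. Without inhibitor 2 the lower genes were 5 and the higher genes 2, or 13.5% against 8.72%. Without control 3 they were 3 and 1, or 7.69% against 7.57%. Without inhibitor 3 they were 4 and 1, or 9.62% against 11.6%. The groups did not overlap for Vldlr, which was higher, and Shmt2, which was lower, or 3.85% of the set against 5.31% of all genes tested (3.7% higher and 1.61% lower). With median-of-ratios scaling the groups of Vldlr overlapped.

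The 95% interval of the log2 fold change lay within 0.5 of 0, a fold of 1.41, for 49 of the 52 genes, or 94.2%, against 85.9% of all genes tested. It lay within 1 of 0, a fold of 2, for all 52 and for 10566 of the 10688 genes tested. The 3 genes with wider intervals were Slc7a11, Cth and Txnip. The set had a median level of 33.2 RPKM against 9.96 RPKM over all genes, and a median SD within groups of 0.11 against 0.13 on the log2 scale. The part of expression level in these shares was not tested. A negative log2 fold change was found for 36 of the 52 genes, against 45.7% of all genes tested. The median was -0.048 in the set and 0.015 over all genes. With median-of-ratios scaling 40 genes were negative, with a median of -0.072 against -0.0070 over all genes. The 45.7% belongs to the main fit. The share of all genes that were negative under this scaling was not counted, and their median was itself below 0. The same scaling changed the share of higher genes among all those at an unadjusted p under 0.05 from 61.5% to 45.4%.

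**Figure D1:**
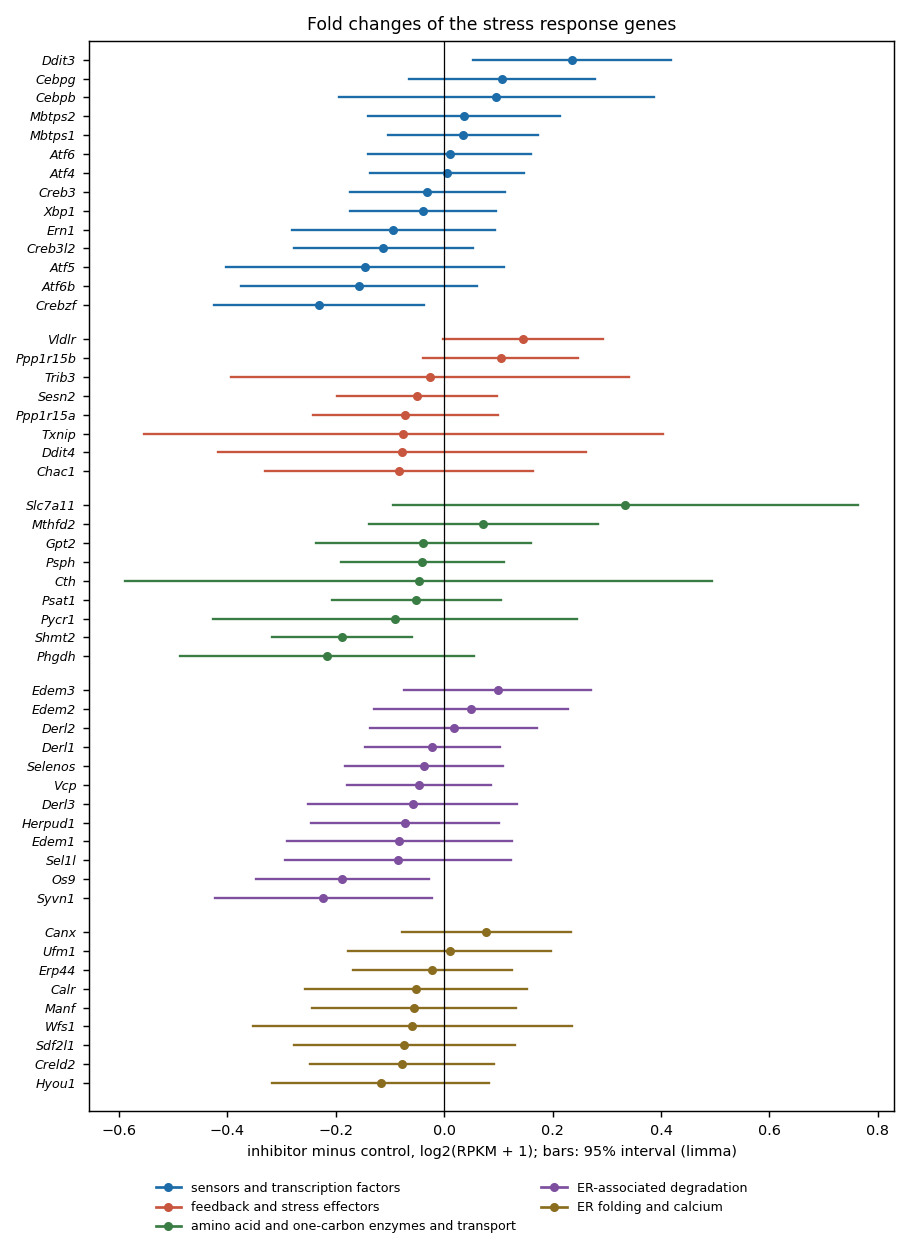
Difference of inhibitor and control on the log2(RPKM + 1) scale for the 52 genes (x axis), 1 row per gene, grouped by role and ordered by size; points are limma estimates and bars their 95% intervals (4 libraries per group). The bars of Ddit3, Crebzf, Shmt2, Os9 and Syvn1 lie on 1 side of 0 before adjustment, and those of Slc7a11, Cth and Txnip are the only ones that reach beyond 0.5 from 0.

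The sensors and transcription factors (14 of 15 listed) split evenly, with 7 positive and 7 negative log2 fold changes and a median of -0.013. Atf4, the factor that gives the arm its name, stood at 191, 206, 201 and 203 RPKM in control libraries 1 to 4 and at 212, 206, 188 and 199 RPKM in inhibitor libraries 1 to 4. Its group means were 200.3 ± 6.71 and 201 ± 10.3 RPKM (SD, n = 4), and all 8 values lay between 188 and 212 RPKM. The log2 fold change of 0.0053 ± 0.063 (SE) had a 95% interval of -0.14 to 0.15. Its sign was negative with median-of-ratios scaling and without control 1 (-0.018), inhibitor 1 (-0.019) or inhibitor 2 (-0.0075).

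Ddit3 encodes CHOP, a factor downstream of ATF4 that is known to promote cell death under lasting stress. It stood at 27.6, 27.8, 23.8 and 29.2 RPKM in control libraries 1 to 4 and at 31.7, 32.7, 28.7 and 35.1 RPKM in inhibitor libraries 1 to 4. The lowest inhibitor library, 3, lay just under the highest control library, 4, so the groups overlapped at that point alone. The means were 27.1 ± 2.30 and 32.1 ± 2.65 RPKM (SD, n = 4), and the log2 fold change was 0.24 ± 0.082 (SE) with an unadjusted p of 0.0168 and an adjusted p of 0.541 by limma. Its unadjusted p was under 0.05 in all 18 settings tried, between 0.00359 and 0.0489. These settings share libraries, so they are no repeat of the measurement.

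Xbp1, the target of IRE1, stood at 152, 143, 154 and 137 RPKM in control libraries 1 to 4 and at 146, 143, 142 and 139 RPKM in inhibitor libraries 1 to 4. These means of 147 ± 8.03 and 143 ± 2.77 RPKM (SD, n = 4) gave a log2 fold change of -0.040 ± 0.060 (SE), with every inhibitor library inside the control range (-0.071 to -0.014 with 1 library left out). Ern1, which encodes IRE1, stood at 23.6, 21.1, 21.0 and 18.7 RPKM in control libraries 1 to 4 and at 19.7, 19.7, 21.6 and 17.6 RPKM in inhibitor libraries 1 to 4. Its lowest value was in inhibitor 4 and its highest in control 1, and the log2 fold change was -0.094 ± 0.084 (SE) (limma adjusted p = 0.684). It was -0.15 to -0.041 with 1 library left out, and 0.0077 without both of those libraries.

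Atf6, the membrane-bound sensor, stood at 37.2, 32.1, 35.5 and 31.5 RPKM in control libraries 1 to 4 and at 34.3, 33.5, 35.9 and 33.3 RPKM in inhibitor libraries 1 to 4. The inhibitor values lay inside the control range, and the log2 fold change was 0.010 ± 0.067 (SE), negative with median-of-ratios scaling and without control 2 (-0.017), control 4 (-0.026) or inhibitor 3 (-0.012). Its paralog Atf6b stood at 38.3, 39.8, 34.0 and 35.0 RPKM in control libraries 1 to 4 and at 29.9, 39.0, 34.1 and 29.0 RPKM in inhibitor libraries 1 to 4. The low values were those of inhibitors 1 and 4, while inhibitor 2 reached the highest controls, and the log2 fold change was -0.16 ± 0.097 (SE) (limma adjusted p = 0.597; -0.24 to -0.10 with 1 library left out). Mbtps2, the site-2 protease that completes the cut of ATF6, was the gene of lowest mean RPKM in the set and stood at 4.40, 3.59, 4.20 and 4.17 RPKM in control libraries 1 to 4 and at 4.45, 4.05, 3.94 and 4.43 RPKM in inhibitor libraries 1 to 4. Its groups overlapped, with a log2 fold change of 0.037 ± 0.079 (SE).

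Crebzf, a basic leucine zipper protein, stood at 18.3, 17.4, 14.8 and 15.3 RPKM in control libraries 1 to 4 and at 13.1, 14.7, 15.0 and 12.6 RPKM in inhibitor libraries 1 to 4. Controls 1 and 2 were above all other libraries, whereas controls 3 and 4 lay beside inhibitors 2 and 3. The means were 16.4 ± 1.64 and 13.9 ± 1.19 RPKM (SD, n = 4), and the log2 fold change was -0.23 ± 0.086 (SE) (unadjusted p = 0.0239, limma adjusted p = 0.541). The other 6 genes of this role were Atf5, Cebpb, Cebpg, Creb3, Creb3l2 and Mbtps1, the site-1 protease. Their log2 fold changes ranged from -0.15 for Atf5 to 0.11 for Cebpg, and their groups overlapped. Atf5, a factor whose translation also depends on eIF2, stood at 102 RPKM in inhibitor 4 against 124 to 159 RPKM in the other 7 libraries.

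**Figure D2:**
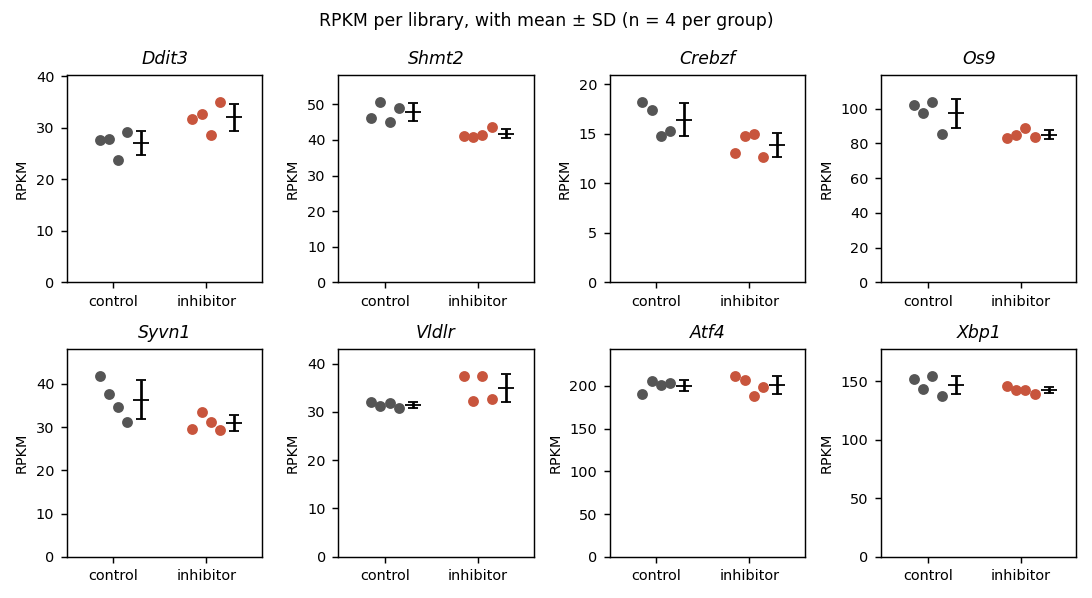
RPKM (y axis, from 0) of 8 genes in each library, control in grey and inhibitor in orange; points are libraries in the order 1 to 4, and bars are the mean ± SD (n = 4 per group). The groups of Shmt2 and Vldlr do not overlap, those of Ddit3, Crebzf, Os9 and Syvn1 overlap in part, and those of Atf4 and Xbp1 fully.

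Among genes that carry out or limit the stress response (8 of 9 listed), 2 log2 fold changes were above and 6 below 0, with a median of -0.060. Vldlr, a lipoprotein receptor known as an ATF4 target, stood at 32.0, 31.1, 31.8 and 30.8 RPKM in control libraries 1 to 4 and at 37.4, 32.3, 37.4 and 32.7 RPKM in inhibitor libraries 1 to 4. The controls were within 30.8 and 32.0 RPKM, and all inhibitor libraries lay above them, 1 and 3 clearly and 2 and 4 by less than 1 RPKM. The log2 fold change was 0.15 ± 0.066 (SE) (unadjusted p = 0.0516, limma adjusted p = 0.550). With median-of-ratios scaling the groups overlapped, and the log2 fold change was 0.12 with an unadjusted limma p of 0.143.

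The phosphatase subunits that reverse eIF2 phosphorylation gave opposite signs. Ppp1r15b, the constitutive subunit, stood at 13.5, 12.1, 11.6 and 12.3 RPKM in control libraries 1 to 4 and at 13.5, 13.1, 12.9 and 13.9 RPKM in inhibitor libraries 1 to 4. Only control 1 reached the inhibitor range, and the log2 fold change was 0.10 ± 0.064 (SE) (limma adjusted p = 0.593). Ppp1r15a, the inducible subunit also called GADD34, stood at 25.0, 21.9, 21.0 and 20.7 RPKM in control libraries 1 to 4 and at 19.2, 21.3, 21.0 and 22.6 RPKM in inhibitor libraries 1 to 4. Its groups overlapped, with a log2 fold change of -0.071 ± 0.077 (SE) (-0.11 to -0.015 with 1 library left out). The difference between the subunits was not tested.

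Trib3, a pseudokinase induced by ATF4 and CHOP, stood at 6.41, 11.8, 9.76 and 12.5 RPKM in control libraries 1 to 4 and at 10.1, 9.83, 9.35 and 9.28 RPKM in inhibitor libraries 1 to 4. The inhibitor libraries were close together, and the control libraries spread from the lowest (control 1) to the highest (control 4) value of all. Its log2 fold change was -0.025 ± 0.16 (SE), -0.21 without control 1 and 0.081 without control 4. Chac1, an enzyme that degrades glutathione, stood at 26.6, 26.5, 30.5 and 25.1 RPKM in control libraries 1 to 4 and at 27.4, 29.2, 26.3 and 20.2 RPKM in inhibitor libraries 1 to 4. Inhibitor 4 alone was below the controls, and the log2 fold change of -0.083 ± 0.11 (SE) turned to 0.024 without it.

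Txnip, a thioredoxin-interacting protein known for its induction by glucose in beta cells, stood at 109, 54.6, 57.5 and 56.0 RPKM in control libraries 1 to 4 and at 56.9, 63.8, 54.4 and 78.9 RPKM in inhibitor libraries 1 to 4. Control 1 stood far above the other controls and inhibitor 4 above the other inhibitor libraries. The log2 fold change was -0.075 ± 0.21 (SE) and became 0.16 without control 1. The remaining genes of this role were Ddit4 and Sesn2, inhibitors of mTORC1 signalling, with log2 fold changes of -0.078 and -0.049 and overlapping groups.

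Of the enzymes and transporters of amino acid and one-carbon metabolism (9 of 12 listed), 2 log2 fold changes were above and 7 below 0, with a median of -0.047. Shmt2, the mitochondrial enzyme that takes a one-carbon unit from serine, had the smallest p of the whole set. It stood at 46.3, 50.7, 45.2 and 49.0 RPKM in control libraries 1 to 4 and at 41.2, 40.8, 41.5 and 43.5 RPKM in inhibitor libraries 1 to 4. Every control library lay above every inhibitor library, and the closest pair was control 3 and inhibitor 4. The means were 47.8 ± 2.54 and 41.8 ± 1.21 RPKM (SD, n = 4), a ratio of 0.874, with a log2 fold change of -0.19 ± 0.058 (SE) with a 95% interval of -0.32 to -0.060 (unadjusted p = 0.00874, limma adjusted p = 0.541). The unadjusted limma p stayed under 0.05 in all 18 settings, between 0.000868 and 0.0316, while the adjusted p was between 0.0959 and 0.900. As for Ddit3, the settings share libraries and are no repeat of the measurement. The groups also stayed apart with median-of-ratios scaling. The other settings kept the same RPKM values or left libraries out, so they could not have made the groups overlap.

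Mthfd2, which acts after Shmt2 in the mitochondrial folate pathway, stood at 22.5, 29.6, 31.1 and 29.7 RPKM in control libraries 1 to 4 and at 29.1, 29.8, 29.6 and 29.4 RPKM in inhibitor libraries 1 to 4. Control 1 was low and the other 7 libraries lay together, so the log2 fold change of 0.072 ± 0.094 (SE) became -0.030 without control 1. Phgdh, the first enzyme of serine synthesis, stood at 32.5, 35.2, 43.2 and 34.5 RPKM in control libraries 1 to 4 and at 30.9, 33.2, 36.1 and 24.8 RPKM in inhibitor libraries 1 to 4. Control 3 was the highest and inhibitor 4 the lowest library, and the log2 fold change was -0.22 ± 0.12 (SE) (limma adjusted p = 0.577). It was -0.11 without inhibitor 4, -0.13 without control 3 and -0.29 without inhibitor 3, where the unadjusted limma p was 0.0443. The later enzymes of serine synthesis, Psat1 and Psph, had log2 fold changes of -0.051 and -0.040 with overlapping groups.

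Slc7a11, the cystine and glutamate exchanger, had the largest positive value of the set. It stood at 3.94, 6.81, 5.17 and 8.65 RPKM in control libraries 1 to 4 and at 8.27, 6.60, 6.95 and 9.35 RPKM in inhibitor libraries 1 to 4. Control 1 was lowest and inhibitor 4 highest, while control 4 lay above 3 of the 4 inhibitor libraries. Its log2 fold change of 0.33 ± 0.19 (SE) had a 95% interval of -0.094 to 0.76 (unadjusted p = 0.112, limma adjusted p = 0.581). It was 0.17 without control 1 and 0.49 without control 4, with unadjusted limma p of 0.302 and 0.0154. In the limma fit that adjusted for the average of the mesenchymal markers it was 0.38, with an unadjusted p of 0.00832 and an adjusted p of 0.315 by limma. Pycr1 of proline synthesis, Gpt2 of alanine metabolism and Cth, which makes cysteine from cystathionine, had log2 fold changes of -0.091, -0.038 and -0.047 with overlapping groups.

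ER-associated degradation returns misfolded proteins to the cytosol for the proteasome, and all 12 of its genes were listed, with 3 log2 fold changes above and 9 below 0 and a median of -0.052. Os9, a lectin that delivers misfolded glycoproteins, stood at 102, 97.6, 104 and 85.3 RPKM in control libraries 1 to 4 and at 83.1, 84.8, 88.6 and 83.9 RPKM in inhibitor libraries 1 to 4. Controls 1 to 3 were above all inhibitor libraries and control 4 among them. The means were 97.3 ± 8.48 and 85.1 ± 2.43 RPKM (SD, n = 4), and the log2 fold change was -0.19 ± 0.072 (SE) (unadjusted p = 0.0262, limma adjusted p = 0.541). Syvn1 encodes HRD1, the ubiquitin ligase of this pathway. It stood at 41.8, 37.7, 34.6 and 31.2 RPKM in control libraries 1 to 4 and at 29.4, 33.4, 31.2 and 29.4 RPKM in inhibitor libraries 1 to 4. Again control 4 lay among the inhibitor libraries, and the log2 fold change was -0.22 ± 0.090 (SE) (unadjusted p = 0.0330, limma adjusted p = 0.541).

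Sel1l, the partner that stabilises HRD1, stood at 87.8, 66.7, 73.0 and 64.8 RPKM in control libraries 1 to 4 and at 68.0, 65.9, 72.6 and 67.2 RPKM in inhibitor libraries 1 to 4. Control 1 was the single high library, and the log2 fold change of -0.085 ± 0.093 (SE) was 0.0061 without it. Herpud1, a membrane protein of the same complex whose promoter is shown above, stood at 133, 117, 114 and 111 RPKM in control libraries 1 to 4 and at 116, 119.7, 102 and 113 RPKM in inhibitor libraries 1 to 4. Its groups overlapped, with a log2 fold change of -0.072 ± 0.077 (SE) (-0.10 to -0.016 with 1 library left out). Edem1, which recognises misfolded glycoproteins, stood at 40.3, 39.3, 34.1 and 35.8 RPKM in control libraries 1 to 4 and at 33.0, 31.2, 36.0 and 41.3 RPKM in inhibitor libraries 1 to 4. Inhibitor 4 was the highest and inhibitor 2 the lowest library, and the log2 fold change was -0.083 ± 0.093 (SE) (-0.16 to -0.026 with 1 library left out). Edem2, Edem3, the derlins Derl1, Derl2 and Derl3, the extracting ATPase Vcp and its membrane anchor Selenos had log2 fold changes between -0.058 for Derl3 and 0.098 for Edem3, with overlapping groups.

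Genes of folding and calcium handling in the ER (9 of 10 listed) were the most abundant role, with a median level of 109 RPKM against 33.2 RPKM over the 52 genes. Here 2 log2 fold changes were positive and 7 negative, with a median of -0.055. Calr, a lectin chaperone that binds calcium, was the most abundant gene of the set. It stood at 921, 891, 938 and 868 RPKM in control libraries 1 to 4 and at 836, 839.9, 826 and 996 RPKM in inhibitor libraries 1 to 4. Inhibitors 1 to 3 lay below all controls and inhibitor 4 above all of them, and the log2 fold change was -0.052 ± 0.092 (SE), or -0.12 without inhibitor 4. Canx, its membrane-bound relative, had a log2 fold change of 0.078 ± 0.070 (SE) with overlapping groups (limma adjusted p = 0.684).

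Hyou1, a large chaperone of the ER, stood at 293, 244, 252 and 219 RPKM in control libraries 1 to 4 and at 218, 237, 237 and 233 RPKM in inhibitor libraries 1 to 4. Control 1 was above the rest and control 4 beside inhibitor 1 at the low end, with a log2 fold change of -0.12 ± 0.089 (SE) (limma adjusted p = 0.648). It was -0.043 without control 1 and -0.18 without control 4. Manf, a secreted factor of the ER that is known to protect beta cells in mice, stood at 301, 264, 292 and 243 RPKM in control libraries 1 to 4 and at 245, 269, 264 and 278 RPKM in inhibitor libraries 1 to 4. All inhibitor libraries lay inside the control range, and the log2 fold change was -0.055 ± 0.084 (SE) (-0.11 to -0.0096 with 1 library left out). Wfs1, the gene of Wolfram syndrome and a membrane protein of the ER, stood at 33.0, 30.1, 32.5 and 28.2 RPKM in control libraries 1 to 4 and at 30.9, 36.0, 31.6 and 21.9 RPKM in inhibitor libraries 1 to 4. Inhibitor 4 was lowest and inhibitor 2 highest, and the log2 fold change of -0.058 ± 0.13 (SE) became 0.081 without inhibitor 4. The others were Creld2 and Sdf2l1, which are induced with the chaperones, Erp44, which retains proteins in the ER, and the ubiquitin-like Ufm1, with log2 fold changes between -0.077 and 0.010 and overlapping groups.

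Of 46 further genes of the pathway outside the set, 43 were listed, and Eif2ak1, Eif2ak4 and Slc3a2 had no row. The log2 fold changes were positive for 17 and negative for 26, or 39.5% positive against 54.3% of all genes tested. Their median was -0.010 against 0.015 over all genes, and 0 passed the threshold by limma. Hspa5, which encodes the chaperone BiP, stood at 1354, 1109.9, 1260.0 and 1023 RPKM in control libraries 1 to 4 and at 1072, 1131, 1139 and 1237 RPKM in inhibitor libraries 1 to 4. Its means were 1187 ± 149 and 1145 ± 68.7 RPKM (SD, n = 4), and the log2 fold change was -0.045 ± 0.11 (SE) with a 95% interval of -0.30 to 0.21. Hsp90b1 (GRP94) and the Hspa5 cofactor Dnajb9 had log2 fold changes of 0.013 and -0.014, and Eif2ak3, which encodes PERK, 0.084, all with overlapping groups. Atf3, another factor downstream of ATF4, was near the lower end of the table, at 0.605 to 2.29 RPKM over the 8 libraries. The groups did not overlap for Ero1b and Faf2, both higher, or 4.65% of the list against 5.31% of all genes tested. The single gene of this list at an unadjusted p under 0.05 was Ero1b, a disulfide oxidase of beta cells, or 2.33% of the list against 8.98% of all genes tested. It stood at 233, 266, 258 and 323 RPKM in control libraries 1 to 4 and at 389, 424, 329.7 and 386 RPKM in inhibitor libraries 1 to 4, without overlap, and its log2 fold change was 0.51 ± 0.11 (SE) (unadjusted p = 0.00131, limma adjusted p = 0.541).

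For each of the 5 roles the control libraries spread (SD) by more than the group means differed. Here the log2(RPKM + 1) of a gene was set relative to its mean over the 8 libraries and averaged over the genes. The amino acid and one-carbon genes stood at -0.25 in control 1 and between 0.084 and 0.13 in the other controls. The inhibitor libraries lay between -0.048 and 0.025. The genes of ER-associated degradation showed the opposite in control 1, at 0.14, with the other 7 libraries between -0.069 and 0.034. The ER folding genes were at 0.11 in control 1 and 0.12 in control 3, and lowest, at -0.10, in control 4.

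**Figure D3:**
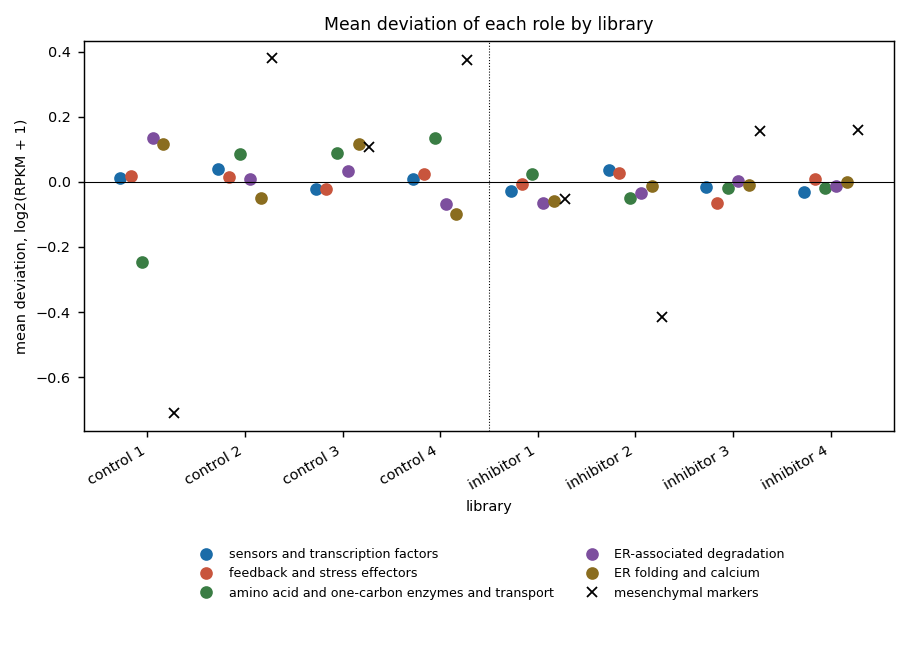
Mean deviation of log2(RPKM + 1) from each gene's mean over the 8 libraries (y axis) for the 5 roles (dots) and for 12 mesenchymal markers (crosses), by library (x axis; the dotted line parts control from inhibitor). In control 1 the amino acid and one-carbon genes and the mesenchymal markers are low while the ER degradation and folding genes are high.

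The genes of widest spread within groups were Cth, Txnip, Slc7a11, Trib3, Ddit4 and Pycr1. Cth stood at 3.00, 7.65, 5.95 and 7.25 RPKM in control libraries 1 to 4 and at 5.21, 4.17, 5.27 and 7.63 RPKM in inhibitor libraries 1 to 4. Control 1 was the lowest of the 8 libraries for Cth, Slc7a11, Trib3, Ddit4 and Pycr1, and the highest for Txnip. Over the whole set control 1 was the lowest library for 8 of the 52 genes, or 15.4%, against 28.2% of all genes tested. It was the highest for 11 of the 52, or 21.2%, against 15.1% of all genes tested. In the same library the mesenchymal markers averaged -0.71 against -0.41 to 0.38 in the other 7, and their part in this pattern was not tested. Inhibitor 4 was the lowest library for 13 of the 52 genes, or 25%, among them Atf5, Phgdh, Chac1 and Wfs1, and for 12.8% of all genes tested. It was the highest library for 11 of the 52 and for 24.1% of all genes tested. The 8 beta-cell markers averaged -0.34 in inhibitor 4 against -0.067 to 0.32 in the other 7, and their part was not tested either. Without both libraries 2 genes were higher (Ddit3 and Vldlr) and 3 lower (Shmt2, Cth and Ddit4) at an unadjusted p under 0.05, or 9.62% of the set against 15.9% of all genes. By limma, 0 of the set and 0 of all genes passed after adjustment.

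**Figure D4:**
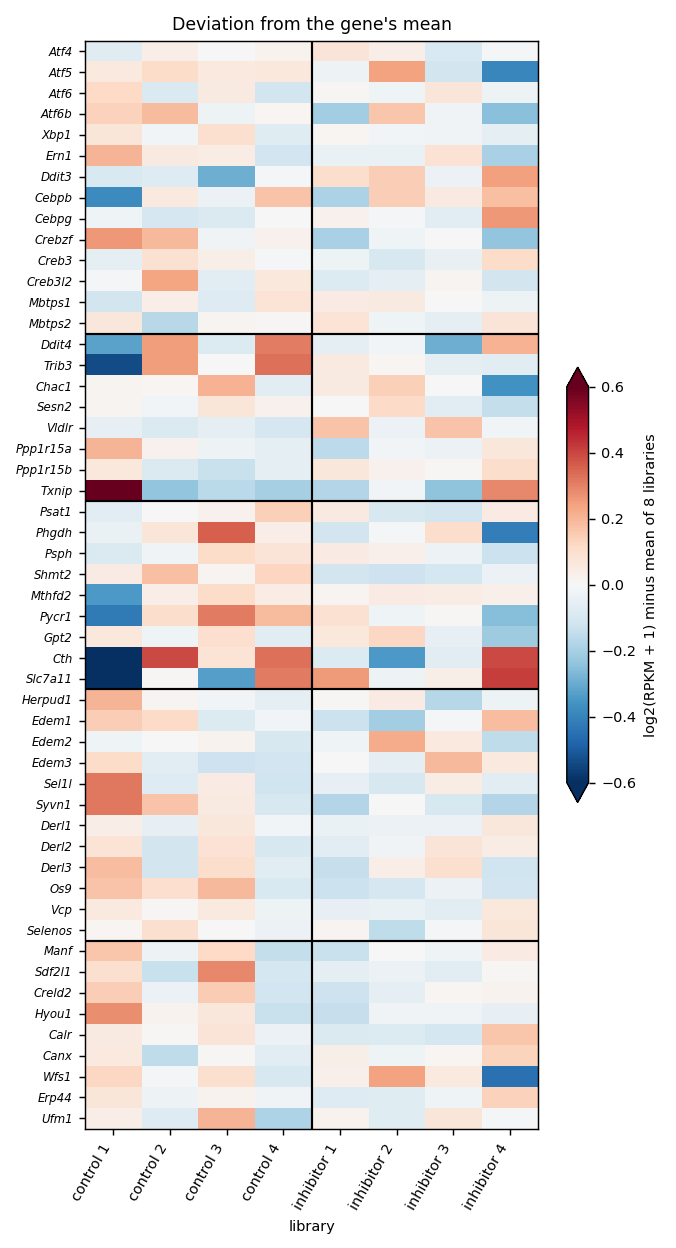
Deviation of log2(RPKM + 1) from the gene's mean over the 8 libraries (colour, red above and blue below, colours saturate at 0.6) for the 52 genes (rows, grouped by role) and the 8 libraries (columns; the vertical line parts control from inhibitor). In control 1 Txnip is high and Cth, Slc7a11, Trib3 and Pycr1 are low, and in inhibitor 4 Slc7a11 and Cth are high and Wfs1, Phgdh, Atf5 and Chac1 low; Cth is also high in control 2.

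In the same comparison, the authors' deposited table had 5 of the 52 genes at an unadjusted p under 0.05, where it had 7.49% of all genes at that level. They were Ddit3, Shmt2, Crebzf, Os9 and Syvn1, 1 higher and 4 lower. Shmt2 had the smallest adjusted p of the set in the authors' deposited table, 0.0772, and Ddit3 had 0.442. At an authors' adjusted p under 0.05 were 0 of the 52 genes and 6 of all 10692 genes.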

How the data were processed

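RNA of 8 libraries was compared, 4 control and 4 inhibitor. The authors' deposited table gave RPKM per library, with their ratio (fold), log2 fold change, p-values and adjusted p-values, per the file headers; their test is not given in the sources used here. Per the submitters' processing notes, HISAT2 2.1.0, STAR 2.5.3a, HTSeq, RSEM 1.3.0 and rat build rn6 were used; which gave the RPKM, and how strand was handled, is not stated there. No listed gene averaged below 1 RPKM in either group.

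log2(RPKM + 1) was fitted with limma 3.58.1 (R 4.3.3; group alone, intensity trend, two-sided, Benjamini-Hochberg) for the 10688 genes that reached 1 RPKM in 4 or more libraries; all 52 listed members passed. Fold changes are on that scale, which understates changes of low genes. Reads were recovered from the steps of the RPKM values for 10692 of 10692 genes (tolerance 0.0001); members had 106 to 47789 reads per library, and the total sequenced is unknown. The fit and the recovery were tested on simulated data. The median half-width of the 95% interval was 0.20. Alternatives were another pseudocount, other filters, median-of-ratios scaling, a replicate block, a mesenchymal covariate, library weights, limma-voom on the recovered reads and fewer libraries.

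Members and lists were chosen with earlier results of these data known. Values per library are given for the 10 members of smallest p, those without overlap, a fixed list of key genes, and the highest and lowest member. Promoters are RefSeq windows of GRCr8, a build other than the authors', matched by symbol for 45 of 52 members.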

Additional observations from a re-analysis of the deposited data

Results flagged for a closer look

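Within each group of 4 libraries, the highest or lowest value was compared with the rest by Dixon's test (critical value 0.829). Of the 104 groups tested (52 genes, both groups), 4 had a library that stood apart, where chance gives about 1 in 20. Txnip was at 109 RPKM in control 1 against 54.6 to 57.5 RPKM in the other controls. Calr was at 996 RPKM in inhibitor 4 against 826 to 839.9 RPKM in the other inhibitor libraries. Derl1 was at 33.7 RPKM in inhibitor 4 against 31.2 to 31.3 RPKM in the others, and Atf5 at 145 RPKM in control 2 against 139.6 to 140.1 RPKM in the other controls, so for both the gap was large only beside very close values.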

How the results depend on the processing

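Under all 17 alternatives, 0 of the 52 genes passed after adjustment in either direction, and so did 0 of all genes tested. With an RPKM of at least 5 in all 8 libraries, 47 of the 52 were tested. The smallest limma adjusted p of a named gene was 0.0959, for Shmt2 with library weights. At an unadjusted p under 0.05, the count of higher genes was 1, and with 1 library left out in turn it was 1 to 2. It was 2 without both control 1 and inhibitor 4, 2 with the replicate block, 2 with the mesenchymal covariate, 2 with limma-voom and 3 with library weights. The count of lower genes was 4, with a range of 1 to 5 with 1 library left out, 6 with library weights and 2 with limma-voom. Together these were 13.5% of the set with the block, 11.5% with the covariate, 17.3% with library weights and 7.69% with limma-voom, against 10.4%, 13.4%, 26.3% and 10.6% of all genes. The median of the set was between -0.072 and -0.027 over all settings. With the replicate number as a block the counts were 2 higher and 5 lower. Same-numbered libraries deviated together in 3 of 4 pairs (correlations 0.14, -0.27, 0.32 and 0.45). Control and inhibitor libraries of unlike number had correlations from -0.45 to 0.42. As 1 same-numbered pair did not deviate together, the numbers were not taken as pairing, and whether they mark a shared factor was not tested. Of 27 named genes, 16 kept the sign of the log2 fold change in every setting. With median-of-ratios scaling, Atf4 was -0.019 and Atf6 -0.014. Without both control 1 and inhibitor 4, Atf6 was 0.065, Atf4 -0.013, Sel1l 0.014, Txnip 0.055, Wfs1 0.11, Mthfd2 -0.028, Chac1 0.016 and Ern1 0.0077. With the mesenchymal covariate Trib3 was 0.017, and with library weights Xbp1 was 0.0016, Txnip 0.029 and Wfs1 0.026. With 1 library left out the ranges were -0.019 to 0.037 for Atf4, -0.026 to 0.052 for Atf6, -0.15 to 0.024 for Chac1, -0.012 to 0.066 for Mbtps2, -0.030 to 0.12 for Mthfd2, -0.14 to 0.0061 for Sel1l, -0.21 to 0.081 for Trib3, -0.18 to 0.16 for Txnip and -0.15 to 0.081 for Wfs1. The cause of these changes of sign was not tested. Depth limits Cebpb and Cth most, with 106 and 127 reads in their lowest library.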
